A study of Mus musculus with 5 samples.

Results

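The HoxC cluster is a run of 9 homeobox genes on mouse chromosome 15, in the order Hoxc4, Hoxc5, Hoxc6, Hoxc8, Hoxc9, Hoxc10, Hoxc11, Hoxc12 and Hoxc13. These 9 genes, chosen by name and place in the cluster, were followed among the 23284 genes counted in 5 mouse forelimb RNA-seq libraries. In the developing digit region of Hoxa13-/-;Hoxd13-/- embryos, Hoxc11 was the 1 HoxC gene called higher than in wild type (adjusted p below 0.05). Its mean was 2.77 CPM (counts scaled to the size of the library) in the mutant and 0.298 CPM in wild type. No HoxC gene was called lower in the mutant (0 by edgeR, DESeq2 and limma-voom, and 0 at an unadjusted p below 0.05). Of all 16166 genes tested by edgeR, 3.82% were called higher and 3.34% lower. A gene that was not called is not shown to be unchanged. Between stages the cluster divided by position: Hoxc4, Hoxc5, Hoxc6 and Hoxc8 were lower in wild-type E11.5 distal forelimb than at E10.5, and Hoxc10, Hoxc11, Hoxc12 and Hoxc13 were higher.

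Hox genes encode homeodomain transcription factors and lie in clusters in which gene order follows the order of expression along the body axis. Genes of low number are read in more anterior tissue, and genes of high number in more posterior tissue. HoxA and HoxD genes pattern the limb along its length, and HOXA13 and HOXD13 are needed for digits. HoxC genes are best known from the trunk, the spinal cord and the hindlimb, and, at the Hoxc13 end, from hair and nails.

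The mutant group was 2 libraries of E11.5 distal forelimb from embryos homozygous for a Hoxa13 allele carrying a neomycin cassette in the coding region and a Hoxd13 allele carrying lacZ in the first exon. The wild-type group was 2 libraries of the same dissected region at the same stage. Both were labelled as a mixed C57BL/6 and CD1 background, and each genotype was represented by 2 separate RNA pools (the protocol gives N = 4 and does not state if this is the size of 1 pool). The E10.5 group was 1 library of forelimb bud labelled CD1, not described as distal. Stage, dissected part and strain label therefore changed together between E11.5 and E10.5 and cannot be told apart. The series title asks what HOX13 activity does during digit development.

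Reads counted in genes totalled 59837137 and 48303512 in mutant replicates 1 and 2, 45115494 and 55842997 in wild-type replicates 1 and 2, and 84172202 at E10.5. The targeted gene Hoxd13 was lower in the mutant libraries, with 47.7 and 40.0 CPM in the mutant against 247 and 246 CPM in wild type. Hoxa13 did not pass the test (adjusted p = 0.44 by edgeR). Both alleles are insertions, and an insertion need not lower the counts over a gene. The effect of either insertion on the counts was not tested. Tbx5, the forelimb identity factor, had 101 and 83.5 CPM in the mutant, 88.0 and 85.8 CPM in wild type and 67.0 CPM at E10.5. Pitx1, which directs hindlimb identity, had 12 and 0 counts in the mutant, 18 and 8 in wild type and 18 at E10.5.

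HoxC genes were a small part of the Hox RNA of these limbs. The summed level over each cluster, divided by transcript length, was 7.98 and 6.55 CPM per kb for HoxC in the mutant, 6.22 and 4.81 CPM per kb in wild type and 20.4 CPM per kb at E10.5. HoxA reached 271 and 233 CPM per kb in the mutant, 187 and 198 CPM per kb in wild type and 152 CPM per kb at E10.5. HoxD was at a similar height, with 235 and 196 CPM per kb in the mutant, 225 and 219 CPM per kb in wild type and 167 CPM per kb at E10.5. The HoxB sum resembled the HoxC sum in being low and in being higher at E10.5. It was 4.94 and 4.76 CPM per kb in the mutant, 2.98 and 3.05 CPM per kb in wild type and 24.9 CPM per kb at E10.5. All 9 HoxC genes together received 916 and 616 reads in the mutant, 542 and 514 reads in wild type and 3731 reads at E10.5, so a single gene at E11.5 rests on 6 to 201 reads.

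**Figure D1:**
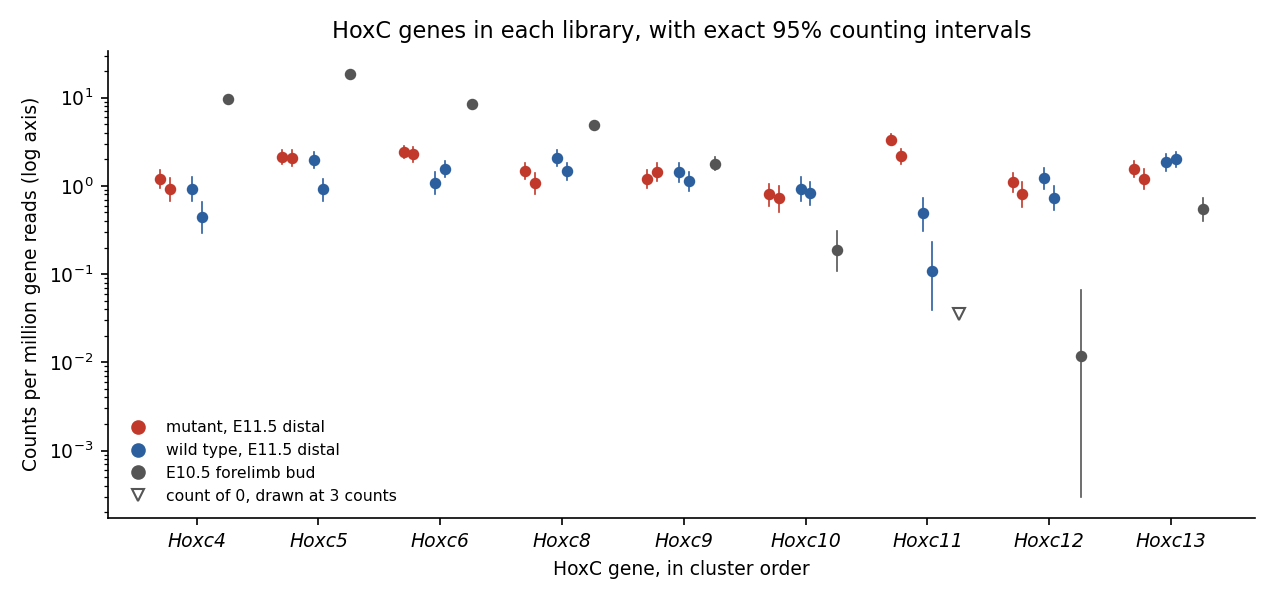
Level of each HoxC gene in each library, in CPM of the reads counted in genes, with genes in cluster order from left to right and 1 point per library. The E10.5 point is far above the E11.5 points from Hoxc4 to Hoxc8 and below them from Hoxc10 to Hoxc13, and at Hoxc11 the mutant points (3.36 and 2.17 CPM) lie above the wild-type points (0.488 and 0.107 CPM).

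Hoxc11, a group 11 gene known in the mouse from the hindlimb and the lumbosacral axis, was the HoxC gene called between genotypes. It had 201 and 105 counts in the mutant libraries, against 22 and 6 in the wild-type libraries. These counts correspond to 3.36 and 2.17 CPM in the mutant and 0.488 and 0.107 CPM in wild type. The groups did not overlap, and wild-type replicate 2 was the lowest of the 4 libraries. In bulk tissue more cells of a type and more RNA per cell cannot be told apart. The log2 fold change was 3.27 (SE 0.48, 95% interval 2.23 to 4.31), with an adjusted p of 0.00114 in the edgeR quasi-likelihood test over 16166 genes, and the gene was higher in 2 of 2 mutant libraries. Summed over libraries, 306 mutant against 28 wild-type reads gave a ratio of 10.2 with an exact counting interval of 6.92 to 15.6. The size rested on the wild-type libraries, which differed between themselves: leaving out wild-type replicate 1 gave 4.62 on the log2 scale, and leaving out wild-type replicate 2 gave 2.52. In such fits the genotype left with 1 library is assumed to vary like the other, and their p-values rest on the spread within the other genotype. Of the 617 genes that rose in the mutant, 25, Hoxc11 among them, had a fold change at least as large as that of Hoxc11.

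At E10.5 Hoxc11 had 0 counts of 84172202, which allows a level of up to 0.0356 CPM (3 counts). Against that limit, with the E11.5 counts taken as exact, the mutant mean was at least 77.6-fold higher and the wild-type mean at least 8.35-fold higher. Exact counting intervals of the ratio, which take in the counting error of both stages, began at 64.2 for the mutant and 5.92 for wild type. With their counts again taken as exact, wild-type replicates 1 and 2 were at least 13.7-fold and 3.01-fold above the 3-count limit. The 6 counts of wild-type replicate 2 had a counting interval of 0.0394 to 0.234 CPM. That interval overlapped the one at E10.5, which reached 0.0438 CPM.

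The group 11 paralogs, Hoxa11 and Hoxd11, which pattern the forearm, were measured as well, and reads can be given to the wrong paralog where sequences are alike over a read length. The homeobox, the part of a Hox gene that encodes the DNA-binding domain, is the most alike stretch of these genes, and it is given for each paralog to show where reads can be told apart. In the Hoxa11 and Hoxd11 lines capitals mark bases that differ from Hoxc11, and in the Hoxc11 line bases that differ from both paralogs (coding strand, GENCODE M21 transcripts).
Hoxc11: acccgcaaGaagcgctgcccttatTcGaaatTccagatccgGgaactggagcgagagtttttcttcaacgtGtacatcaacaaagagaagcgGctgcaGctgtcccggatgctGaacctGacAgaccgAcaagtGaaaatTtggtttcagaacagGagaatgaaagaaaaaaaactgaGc
Hoxa11: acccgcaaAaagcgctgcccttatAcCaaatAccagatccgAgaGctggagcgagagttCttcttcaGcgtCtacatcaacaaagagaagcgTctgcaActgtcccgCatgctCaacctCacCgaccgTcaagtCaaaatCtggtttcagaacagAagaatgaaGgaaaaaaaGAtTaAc
Hoxd11: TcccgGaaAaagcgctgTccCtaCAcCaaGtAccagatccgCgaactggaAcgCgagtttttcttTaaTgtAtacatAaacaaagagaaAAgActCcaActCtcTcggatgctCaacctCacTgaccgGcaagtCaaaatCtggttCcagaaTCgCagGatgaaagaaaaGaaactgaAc
Over 180 bases Hoxa11 differed from Hoxc11 at 24 bases (86.7% identity, 5 codons encoding another residue) and Hoxd11 at 37 bases (79.4% identity, 4 such codons). The longest identical run anywhere in the transcripts was 20 bases with Hoxa11 and 12 bases with Hoxd11, well below the 50 cycles read from each end. None of the 1972 distinct 50-base windows of the Hoxc11 transcript occurred in another gene's transcripts.

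Both paralogs also rose in the mutant. Hoxa11 had 128 and 102 CPM in the mutant against 50.7 and 59.9 CPM in wild type, with a log2 fold change of 1.04 (95% interval 0.76 to 1.32, adjusted p = 0.000349 by edgeR). Hoxa11as lies antisense to Hoxa11, and since HTSeq's use of strand is not stated, the Hoxa11 value is uncertain. Hoxd11 had 54.2 and 43.6 CPM in the mutant against 31.8 and 32.0 CPM in wild type, with a log2 fold change of 0.60 (95% interval 0.35 to 0.85, adjusted p = 0.00747), and this call ended without mutant replicate 1 (adjusted p = 0.0966). The interval of Hoxc11 lay above both paralogs' intervals, and the difference between the genes was not tested.

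**Figure D2:**
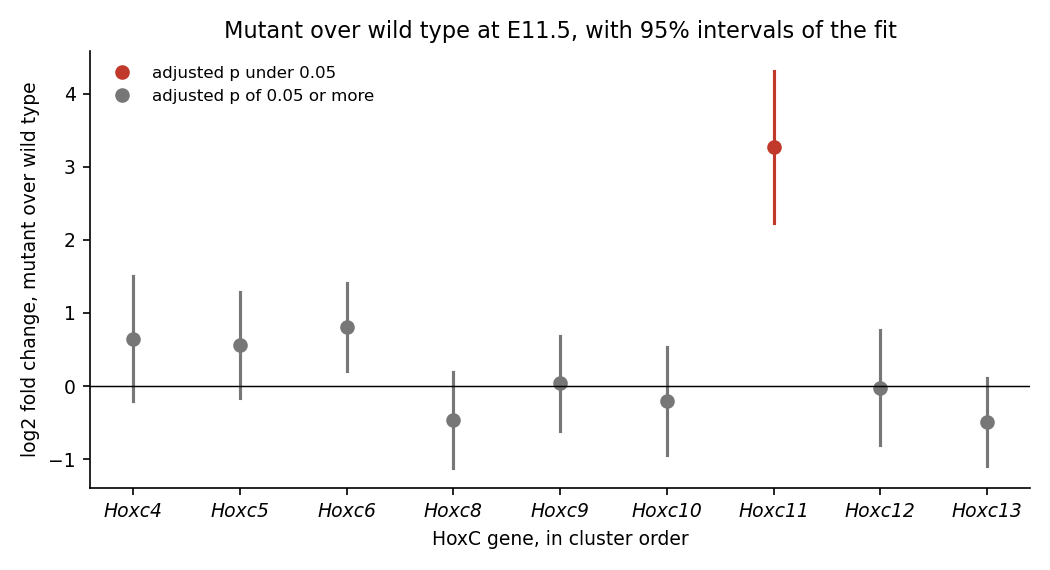
Log2 fold change of each HoxC gene at E11.5, mutant over wild type, with the 95% interval of the edgeR fit as bars and genes in cluster order. Hoxc11 at 3.27 is the gene past the adjusted threshold, and 7 of the other intervals include 0, the exception being Hoxc6 (0.20 to 1.41).

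Of the 9 HoxC genes tested, 1 rose and 0 fell at an adjusted p below 0.05, where 7.16% of all 16166 genes were called in either direction, 3.82% of them higher and 3.34% lower. At an unadjusted p below 0.05 there were 2, Hoxc11 and Hoxc6. The median log2 fold change of the 9 genes was 0.04, against -0.00082 over all genes tested, with 5 values above 0 and 4 below. The mutant and wild-type libraries did not overlap for 6 of the 9 genes, and the same held for 49.5% of all genes.

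Hoxc6, an early limb bud and thoracic-level gene, came nearest to a second call. It had 2.44 and 2.30 CPM in the mutant against 1.09 and 1.58 CPM in wild type. Both mutant libraries were above both wild-type libraries, but the log2 fold change of 0.80 (SE 0.28, 95% interval 0.20 to 1.41) did not pass (adjusted p = 0.116, unadjusted p = 0.0135, edgeR). It was called without wild-type replicate 2 (log2 fold change 1.14, adjusted p = 0.0331) and with no filter on low counts (0.80, adjusted p = 0.0402).

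Hoxc4 and Hoxc5, genes of the cervical and upper thoracic axis, gave similar values to each other. Hoxc4 had 1.20 and 0.932 CPM in the mutant against 0.931 and 0.448 CPM in wild type. For Hoxc5 the levels were 2.14 and 2.09 CPM in the mutant and 1.97 and 0.913 CPM in wild type. In both genes wild-type replicate 1 was close to the mutant libraries and wild-type replicate 2 was lower. The log2 fold changes of 0.65 (Hoxc4, interval -0.21 to 1.51) and 0.56 (Hoxc5, interval -0.16 to 1.28) did not pass (edgeR adjusted p = 0.417 and 0.397). Without wild-type replicate 1, Hoxc5 was called (1.17, adjusted p = 0.0261) and Hoxc4 stood at 1.21 (adjusted p = 0.105). Without wild-type replicate 2, the values were 0.12 for Hoxc5 and 0.22 for Hoxc4.

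Hoxc8 and Hoxc9, which set thoracic identity in vertebrae and motor neurons, were not called between genotypes. Hoxc8 had 1.49 and 1.08 CPM in the mutant and 2.08 and 1.47 CPM in wild type, and the groups overlapped. Its log2 fold change was -0.47 (interval -1.12 to 0.19, edgeR adjusted p = 0.451). Hoxc9 had 1.20 and 1.45 CPM in the mutant and 1.44 and 1.13 CPM in wild type, also overlapping, with a log2 fold change of 0.04 (interval -0.61 to 0.68, adjusted p = 0.970).

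Hoxc10, a gene of the lumbar axis and hindlimb, had 0.802 and 0.725 CPM in the mutant against 0.931 and 0.824 CPM in wild type. Hoxc13, required for hair and nail formation, had 1.57 and 1.20 CPM in the mutant against 1.86 and 2.01 CPM in wild type. In both genes the mutant libraries were the lower ones without overlap, yet the log2 fold changes of -0.21 (interval -0.95 to 0.53) and -0.49 (interval -1.09 to 0.11) did not pass (edgeR adjusted p = 0.814 and 0.365). Hoxc12, between Hoxc11 and Hoxc13, had 1.10 and 0.807 CPM in the mutant and 1.22 and 0.734 CPM in wild type, so the groups overlapped (log2 fold change -0.02, interval -0.80 to 0.76, adjusted p = 0.986). The genes on either side of Hoxc11 in the cluster were thus not called, and their upper limits of 0.53 and 0.76 lay below the lower limit of Hoxc11, 2.23. That difference between neighbours was not tested.

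**Figure D3:**
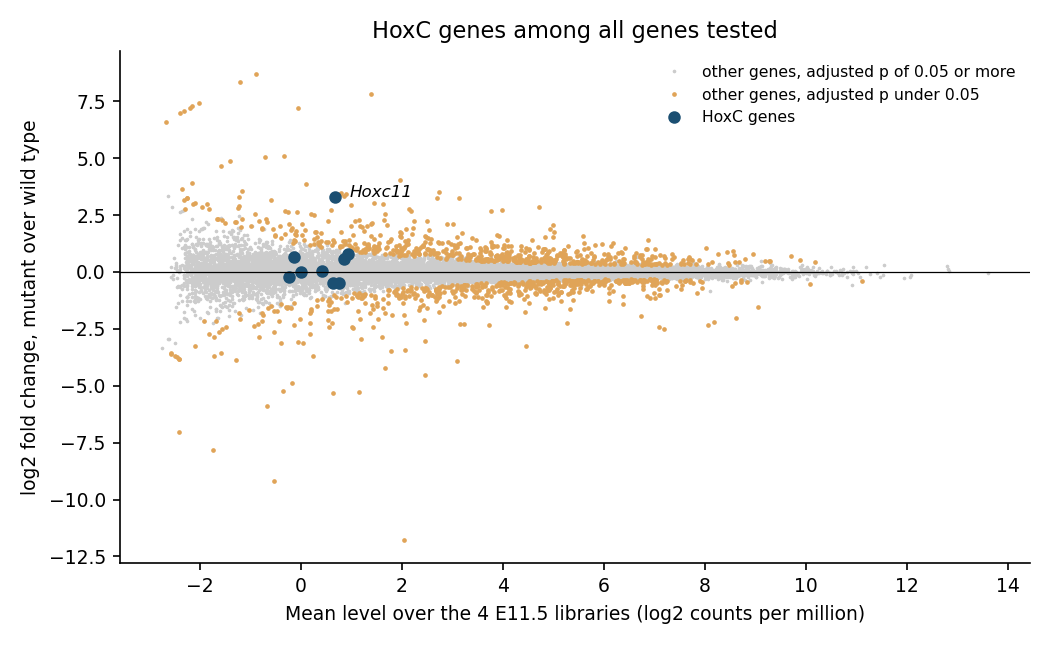
Log2 fold change, mutant over wild type, against the mean level over the 4 E11.5 libraries in log2 CPM, for the 16166 genes tested. The HoxC genes sit in the lower part of the range of levels, where the scatter of uncalled genes is wide, and Hoxc11 at 3.27 lies outside that scatter.

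Few sequence stretches were shared with other genes. Windows of 50 bases were taken from 1 transcript for each HoxC gene, and for Hoxc4, Hoxc5, Hoxc6, Hoxc11, Hoxc12 and Hoxc13 none occurred in another gene's transcripts. The shared windows made up 0.660% in Hoxc8, 1.47% in Hoxc9 and 6.40% in Hoxc10. All shared Hoxc10 windows were shared with Hoxc5, since in GENCODE M21 another Hoxc5 transcript, not the one cut into windows, and Hoxc10 have 166 exon bases in common on the same strand. Reads there could be given to neither gene, so the levels of both Hoxc10 and Hoxc5 are uncertain to that extent.

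Against the E10.5 library, the wild-type E11.5 libraries were at least 2-fold lower for 4 HoxC genes and at least 2-fold higher for 4 others. Over all 16738 genes compared, 3.86% were at least 2-fold lower in both wild-type libraries and 12.9% higher (16.7% in either direction). The E10.5 group has 1 library, so these differences carry no test. The median log2 difference over the 9 genes was -0.71, also with Hoxc11 set at its lower bound, against 0.02 over all genes.

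The anterior genes were the ones lower at E11.5. Hoxc4 had 0.931 and 0.448 CPM in wild type against 9.77 CPM at E10.5, and the summed wild-type level was 0.0680 of the E10.5 level (exact counting interval 0.0522 to 0.0872). Hoxc5, the most abundant HoxC gene at E10.5, had 1.97 and 0.913 CPM in wild type against 18.6 CPM at E10.5, a ratio of 0.0744. Hoxc6 had 1.09 and 1.58 CPM in wild type against 8.46 CPM at E10.5, a ratio of 0.160. Hoxc8 had 2.08 and 1.47 CPM in wild type against 4.92 CPM at E10.5, a ratio of 0.354. The ratio was larger from gene to gene between Hoxc5 and Hoxc8. Hoxc9 was the turning point, with 1.44 and 1.13 CPM in wild type against 1.79 CPM at E10.5, and it was under 2-fold apart.

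The posterior genes went the other way. Hoxc10 had 0.931 and 0.824 CPM in wild type against 0.190 CPM (16 counts) at E10.5, a ratio of 4.59 (counting interval 2.67 to 8.37). Hoxc12 had 55 and 41 counts in wild type against 1 count at E10.5, a ratio of 80.0 whose counting interval, given this single count, had a lower end of 14.0. Hoxc13 had 1.86 and 2.01 CPM in wild type against 0.547 CPM at E10.5, a ratio of 3.55 (2.57 to 5.01). With Hoxc11 at 0 counts at E10.5, the 4 genes from Hoxc10 to Hoxc13 were all higher in each wild-type library.

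**Figure D4:**
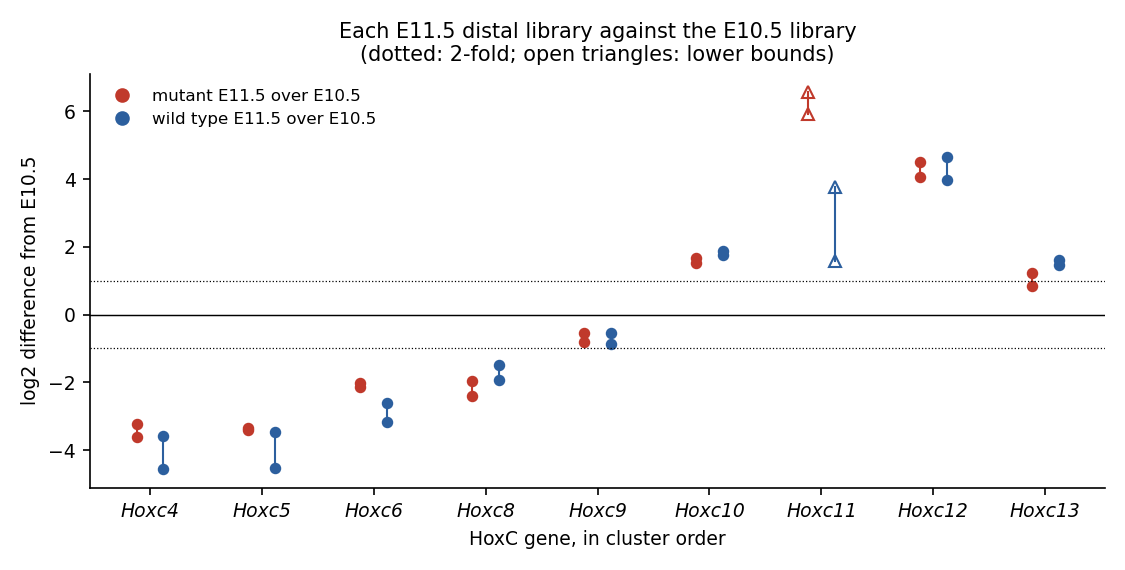
Log2 difference of each E11.5 distal library from the E10.5 library for the 9 HoxC genes in cluster order. The scale is TMM-scaled log2 CPM, except for Hoxc11, which is on CPM without TMM scaling. Lines join the 2 libraries of a genotype, and dotted lines mark 2-fold. Values run from -4.56 at Hoxc4 to 4.65 at Hoxc12 in wild type. The triangles of Hoxc11 are lower bounds against 3 counts at E10.5, with the E11.5 counts taken as exact.

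The mutant libraries were compared with the same E10.5 library, so both stage comparisons share it and are given side by side. At least 2-fold lower in both mutant libraries were 4 HoxC genes, and at least 2-fold higher were 3, where 4.13% of all genes were lower and 14.5% higher (18.7% in either direction). The same 4 anterior genes were lower, with mean log2 differences of -3.42 (Hoxc4), -3.37 (Hoxc5), -2.08 (Hoxc6) and -2.18 (Hoxc8) in the mutant, and -4.08, -3.99, -2.89 and -1.71 in wild type. Hoxc13 was the gene that met the rule in wild type (1.47 and 1.61) and not in the mutant (1.23 and 0.84). With scaling to library size only, Hoxc13 met the rule in the mutant as well, so this contrast depended on the scaling. Hoxc10 averaged 1.60 in the mutant and 1.81 in wild type, and Hoxc12 averaged 4.29 in the mutant and 4.31 in wild type.

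Other clusters were read beside this stage difference. HoxB had 7 of 8 genes at least 2-fold lower in wild type E11.5 than at E10.5 and 0 higher, with a median log2 difference of -3.25. HoxD had 5 of 9 lower and 2 higher (median -1.46), and HoxA 2 of 11 lower and 1 higher (median -0.69). Within group 4, the wild-type over E10.5 log2 difference was -4.08 for Hoxc4, -3.28 for Hoxb4, -1.92 for Hoxd4 and -1.34 for Hoxa4. At the other end Hoxc13 (1.54) stood beside Hoxd13 (1.93) and Hoxa13 (2.94), and Hoxc12 (4.31) beside Hoxd12 (1.36).

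Genotype differences of HoxD and HoxC paralogs were set side by side. Hoxd4 was called higher in the mutant (log2 fold change 2.04, edgeR adjusted p = 5.92e-07), as was Hoxd8 (1.77, adjusted p = 1.16e-05). The corresponding HoxC values were 0.65 for Hoxc4 and -0.47 for Hoxc8, neither called. In the mutant the mean log2 difference from E10.5 was 0.11 for Hoxd4 and 0.32 for Hoxd8, while Hoxc4 and Hoxc8 stood at -3.42 and -2.18. The difference between clusters was not tested. By count, 6 of 8 HoxD genes tested rose and 1, Hoxd13, fell (median 1.18), 5 of 11 HoxA genes rose and 0 fell (median 0.92, with 6 higher by DESeq2 and 7 by limma-voom), and 1 of 5 HoxB genes rose, Hoxb9 (2.48, adjusted p = 0.0012). Of the HoxA calls, that of Hoxa6 (0.98) was lost without mutant replicate 1 (adjusted p = 0.0744).

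**Figure D5:**
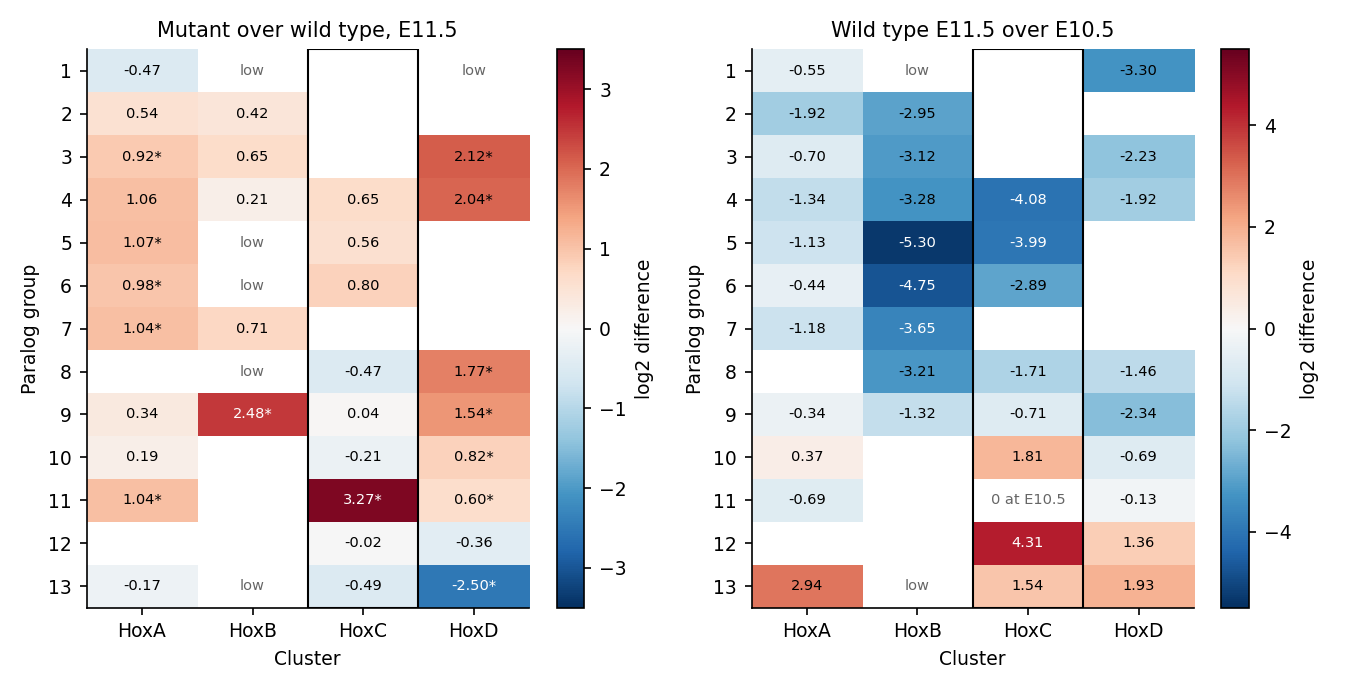
Log2 differences of all Hox genes by paralog group (rows) and cluster (columns, HoxC outlined), mutant over wild type at E11.5 on the left and wild-type E11.5 over E10.5 on the right. Stars mark an edgeR adjusted p below 0.05, "low" marks genes under the count filter, blanks are groups with no gene in that cluster, and Hoxc11 has no stage value because its E10.5 count was 0. On the left HoxC carries a star at Hoxc11 (3.27), and on the right its column turns from blue above to red below between Hoxc9 (-0.71) and Hoxc10 (1.81).

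Levels of different HoxC genes were compared per transcript length. At E10.5 the order was Hoxc5 (6.38 CPM per kb), Hoxc6 (5.35), Hoxc4 (4.92), Hoxc8 (2.63), Hoxc9 (0.756), Hoxc13 (0.222), Hoxc10 (0.0996), Hoxc12 (0.0115) and Hoxc11 (0). By counting intervals, Hoxc6 and Hoxc4 overlapped, as did Hoxc12 and Hoxc11, and the interval of Hoxc13 (0.163 to 0.296) only just cleared that of Hoxc10 (0.0569 to 0.162). Along the cluster the E10.5 level thus fell from Hoxc5 to Hoxc11, and Hoxc13 at the end was higher again.

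At E11.5 the profile was flat by comparison. In the mutant Hoxc6 led (1.5 ± 0.064 CPM per kb, SD, n = 2), followed by Hoxc11 (1.37 ± 0.415) and Hoxc12 (0.926 ± 0.203), and the other 6 genes lay between 0.400 (Hoxc10) and 0.724 (Hoxc5). In wild type Hoxc8 (0.951 ± 0.233), Hoxc12 (0.947 ± 0.333), Hoxc6 (0.842 ± 0.219) and Hoxc13 (0.786 ± 0.0413) were within their spread of each other. Hoxc9, Hoxc5, Hoxc10 and Hoxc4 followed, between 0.541 and 0.348 CPM per kb. Hoxc11 was last in each wild-type library (0.241 and 0.0532 CPM per kb), whereas it was first in mutant replicate 1 (1.66) and second in mutant replicate 2 (1.08).

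The genes whose profile over the 5 libraries lay closest to a HoxC gene were found by the root mean square difference of centred log2 levels, as a description. Hoxc5 and Hoxc4 were each other's nearest gene of all (0.11), followed for both by Pax1, a sclerotome factor, and Fnd3c2. Nearest to Hoxc6 were Gm5127, Pklr and C130026L21Rik (0.10 to 0.13), and nearest to Hoxc8 were Foxp4, Tcf7 and Wnt16 (0.13 to 0.14). Hoxc13 had Hoxa11as as its nearest gene (0.051). The genes nearest to Hoxc11 by this measure, D630041G03Rik, Cytl1 and Col6a5, were 0.80, 0.84 and 0.87 away. Their Pearson correlations with Hoxc11 over the 5 libraries were 0.988, 0.948 and 0.963. The measure grows with the size of the changes in a profile, and Hoxc11 had 0 counts at E10.5. The single E10.5 library sets most of each profile.

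MicroRNA genes of the cluster had few counts. The miR-196 family is encoded beside group 9 and 10 Hox genes and, in the mouse, is known to repress Hox mRNAs, Hoxc8 among them. Mir196a-2, between Hoxc10 and Hoxc9, had 0 counts in all 5 libraries, which allows up to 0.0356 CPM at E10.5 (3 counts). That limit is for reads counted over the gene. The level of the mature miRNA was not measured for any of these genes, so the 0 counts do not show that it was absent. The mature miRNA (RefSeq, GRCm38.p6 table) is shown with its seed, bases 2 to 8, in capitals, above the Hoxc8 stretches that hold its complement in capitals, downstream of the stop codon (GENCODE M21).
mmu-miR-196a-5p: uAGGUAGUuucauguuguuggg
Hoxc8 site 135 bases after the stop: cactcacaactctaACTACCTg
Hoxc8 site 892 bases after the stop: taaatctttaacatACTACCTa
The other 8 HoxC transcripts held 0 matches to ACTACCT after the stop codon. Mir196a-1, the HoxB copy, named here after its counts were seen, had 15 and 16 counts in the mutant against 2 and 2 in wild type and 4 at E10.5 (log2 fold change 2.78, edgeR adjusted p = 0.0440). The call ended when any single library was left out (adjusted p from 0.100 without mutant replicate 1 to 0.243 without mutant replicate 2, with 0.115 and 0.175 without wild-type replicates 1 and 2). Reads of the miRNA precursor and of any longer transcript over the gene cannot be told apart in such counts. Mir196b, on chromosome 6, encodes a mature miRNA with the same seed. It had 59 and 63 counts in the mutant, 35 and 63 in wild type and 48 at E10.5. Its summed mutant level was 1.16 of the wild-type level (exact counting interval 0.884 to 1.53). Mir615, inside the Hoxc5 region, had 3 and 3 counts in the mutant, 1 and 0 in wild type and 8 at E10.5.

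Of 13 genes tested on either side of the cluster, 0 rose and 0 fell by edgeR, DESeq2 or limma-voom, and 0 had an unadjusted p below 0.05 (median log2 fold change -0.01). Against E10.5, 1 of 14 flanking genes was higher and 1 lower in wild type.

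HOX proteins bind DNA with cofactors, MEIS and PKNOX proteins among them. Pknox2 was higher in the mutant by the edgeR test (log2 fold change 0.64, adjusted p = 0.0153, but 0.0618 without mutant replicate 1). Meis1, a marker of proximal limb, had 15.7 and 18.5 CPM in the mutant, 21.8 and 15.2 CPM in wild type and 107 CPM at E10.5. Meis2 had 12.8 and 16.0 CPM in the mutant, 17.3 and 12.1 CPM in wild type and 104 CPM at E10.5.

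Markers of other tissues that use HoxC genes were read beside both results, and their part in them was not tested. Of the body wall and somite list, 6 of 11 genes were lower and 2 higher in wild type than at E10.5 (median log2 difference -2.21). Pax1 had 0.177 and 0.0895 CPM in wild type against 2.13 CPM at E10.5, and Wt1 0.0887 and 0.107 CPM in wild type against 0.950 CPM at E10.5. The genes that were higher were Meox2, a somite and muscle homeobox gene, at 110 and 117 CPM in wild type against 37.8 CPM at E10.5, and Uncx, at 14 and 18 counts in wild type against 5 at E10.5. The summed list was 239 and 249 CPM in wild type against 178 CPM at E10.5, and Tcf21 had no count in any library. Neural and Schwann cell genes had 3 of 11 higher and 2 lower, with sums of 69.5 and 75.6 CPM in wild type against 67.0 CPM at E10.5.

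Beside the Hoxc11 difference between genotypes, hindlimb and caudal genes had 2 of 7 called, both higher in the mutant by the edgeR test: T (log2 fold change 2.67, adjusted p = 1.06e-05) and Nr2f2 (0.53, adjusted p = 0.00983). Their summed level was 131 and 122 CPM in the mutant against 103 and 107 CPM in wild type. Tbx4, the hindlimb T-box gene, had 10.4 and 8.90 CPM in the mutant against 8.29 and 7.70 CPM in wild type (adjusted p = 0.38), Pitx1 stayed at 0 to 18 counts, and Cdx4 had no count. Neural genes had Pou4f1, a sensory neuron factor, higher (2.69) and Tubb3 (-1.54) and Stmn2 (-1.57) lower in the mutant, with sums of 57.0 and 59.3 CPM in the mutant against 69.5 and 75.6 CPM in wild type. Body wall genes had 1 of 8 higher, Gata6 (2.09), and 1 lower, Foxc2 (-1.19, adjusted p = 0.0297). The Foxc2 call ended in 5 of the alternatives, with adjusted p values up to 0.139. Surface ectoderm genes, which include the tissue where Hoxc13 acts in nails, had 0 of 12 higher (0 by the other tools and at an unadjusted p below 0.05) and 3 lower, Krt14 (-0.42), Krt8 (-0.56) and Sp6 (-0.81). Leaving out mutant replicate 1 ended the Krt14 and Krt8 calls (adjusted p = 0.316 and 0.0900), as did leaving out wild-type replicate 2 (0.0666 and 0.0558). Their summed level was 324 and 341 CPM in the mutant against 348 and 362 CPM in wild type. Limb mesenchyme genes had 1 of 7 higher, Prrx1 (0.49), and 4 lower, Prrx2 (-0.39), Msx1 (-0.84), Twist1 (-0.48) and Lhx9 (-0.42), with the Twist1, Lhx9 and Prrx2 calls lost without mutant replicate 2 (adjusted p = 0.108, 0.239 and 0.294) and the Prrx2 call also without mutant replicate 1 (0.0626). Muscle lineage genes had 0 of 6 called by any of the 3 tools (1 at an unadjusted edgeR p below 0.05), with sums of 29.6 and 38.2 CPM in the mutant against 36.1 and 42.1 CPM in wild type.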

How the data were processed

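RNA was measured in 5 libraries grouped by their titles. The libraries were stranded and depleted of ribosomal RNA, amplified with 8 cycles of PCR and read for 50 cycles from both ends, per the labels' protocols. The build mm9 and TopHat2 2.0.13, SAMtools, HTSeq and Cufflinks 2.1.1 are named in the submitters' processing notes. The deposited values are raw counts of reads per gene symbol. HTSeq's annotation and strand setting are not given in the sources used here. The closing HTSeq lines stayed out of library sizes. Of their sum with the gene counts, reads in no feature were 34.4% and 39.6% in the mutant, 39.2% and 30.3% in wild type and 24.3% at E10.5. Ambiguous reads were 0.751% to 1.14%, and reads without a unique alignment 9.10% to 14.8%.

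Mutant was compared with wild type by edgeR 4.0.16 (R 4.3.3): filterByExpr (minimum count 10, minimum total 15), TMM, quasi-likelihood F test with genotype as the term, and Benjamini-Hochberg adjustment over 16166 genes, called below 0.05. CPM values are counts scaled to the reads in genes of each library. Count ratios and the Hoxc11 bounds use this scale without the TMM factors, which were 0.872 at E10.5 and 1.01 to 1.05 at E11.5. E11.5 was compared with E10.5 on log2 TMM-scaled CPM (prior count 2), called where both libraries were at least 2-fold to the same side. Intervals are 95%. Counting intervals and the 3-count floor cover counting error only, as there are no molecular identifiers. Replicate counts differed beyond sampling noise (chi-square per degree of freedom 12.0 in the mutant, 28.5 in wild type), so each counted once.

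Named genes were all 9 members, called genes of the context lists (the 4 of smallest adjusted p where more were called), the members' paralogs, and the 3 genes of most similar profile over the libraries. Meis1, Meis2, Pax1, Wt1, Meox2, Uncx, Prrx2, Tbx4, Pitx1 and the miRNA genes were added after their values were seen. Members, context lists and marker lists were chosen with earlier results of these data known. Alternatives were RLE size factors, filters, DESeq2 1.42.0, limma-voom 3.58.1, the newer quasi-likelihood estimate, a replicate block and leaving out each library. Sequences come from GENCODE M21 (GRCm38) and RefSeq, and mm9 coordinates are not printed. Results on some genes of the context lists are not reported here.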

Additional observations from a re-analysis of the deposited data

How the results depend on the processing

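Over the alternatives Hoxc11 stayed called, with log2 fold changes of 2.52 to 4.62 and edgeR, limma or DESeq2 adjusted p values from 3.47e-13 to 0.00234. With no filter on low counts 2 HoxC genes were called, Hoxc6 being added (log2 fold change 0.80), and 1762 of all genes against 1157. Leaving out each library in turn gave 1 to 2 HoxC calls and 796 to 2018 of all genes, with 2018 without wild-type replicate 1, and log2 fold changes of 0.12 to 1.17 for Hoxc5, 0.55 to 1.14 for Hoxc6, -0.11 to 0.19 for Hoxc9 and -0.33 to 0.35 for Hoxc12. Hoxc12, near 0 throughout, was 0.021 with limma-voom and 0.0060 with the newer quasi-likelihood estimate; the cause was not tested. A minimum count of 50 removed Hoxc4 and Hoxc10. The other fold changes of HoxC genes kept their direction and side of the threshold in the alternatives run; for the context genes named in the results, lost calls are given there. With 1 library left in a genotype, it is assumed to vary like the other genotype. The count of HoxC genes apart from E10.5 was 8 for wild type and 7 to 8 for the mutant in all settings. Hoxc13 was the gene that changed the mutant count. The replicate numbers were not shown to pair the pools (r = -0.0775 between same-numbered deviations, across 16166 genes). With a replicate block, 1 HoxC gene and 1252 of all genes were called, and the log2 fold change of Hoxc11 was 3.34. Counts of 6 to 201 per E11.5 library limit what can be detected.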
